A study of Mus musculus with 36 samples.

Results

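Integrins and laminins were represented by 39 of the 21442 genes in the count table. Members were taken by symbol, as genes named Itga or Itgb followed by letters or digits and genes named Lama, Lamb or Lamc followed by a digit. The rule found 28 Itg symbols and 11 laminin chains. Of the Itg symbols, 24 encode integrin subunits. The other 4 share the symbol but are not integrin subunits, namely Itgb1bp1, Itgb1bp2, Itgb3bp and Itgbl1. The subunit genes Itgad, Itgax and Itgb2l were not analysed here.

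Integrins are receptors made of an alpha and a beta subunit that span the plasma membrane and hold cells to the extracellular matrix or to other cells. The alpha subunit largely sets the ligand: laminin, collagen, proteins with an RGD motif such as fibronectin and vitronectin, or counter-receptors on other cells. Laminins are secreted trimers of an alpha, a beta and a gamma chain that polymerise into basement membranes. Fibroblasts hold mainly to interstitial matrix, epithelial cells sit on laminin-rich basement membrane, and pluripotent cells are known to grow on laminin through integrins of the beta1 family.

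The mRNA data comprised 36 mouse libraries, 3 for each combination of 6 stages and 2 genotypes (12 groups), made to follow the loss of the zinc finger gene Zfp266 before, during and after reprogramming to induced pluripotent stem cells (iPSCs). WT and KO mouse embryonic fibroblasts (MEFs) carried Cas9, a Nanog-GFP reporter and a doxycycline-inducible transgene for Myc, Klf4, Oct4 and Sox2 (MKOS) with mOrange. Lentiviral sgRNA against Zfp266 made the KO cells and a non-targeting sgRNA the WT cells, so a KO library from MEFs or from reprogramming held a mixed, uncloned pool of edited cells. MEF libraries were unsorted cells kept in fibroblast medium with FGF2 and heparin, without doxycycline. Reprogramming cells came from the same kind of MEFs mixed with WT MEFs of strain 129, were cultured in ESC medium with LIF, vitamin C and doxycycline, and were sorted for mOrange at days 3, 5 and 7 (D3, D5 and D7). The WT and KO iPSC libraries were each single-cell clones, isolated from Nanog-GFP-positive cells and kept without doxycycline in puromycin. KO embryonic stem cells (ESCs) were clones selected from the parental ESC line after transfection. The methods and sample titles do not say whether the WT ESC libraries were clones, or whether each KO ESC library was a separate clone. A step from MEF to D3 therefore also changes medium, drug and sorting. In bulk RNA, fewer cells that express a gene and less RNA per cell cannot be told apart.

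Total counts per library ranged from 19224103 to 39610939, and a gene without a read could still have held up to 2.31 to 5.22 normalised counts, depending on the library (3 reads, counting error only). Members took 0.130% to 0.462% of all counts. Normalised counts are reads divided by the median-ratio size factor of each library. Zfp266 itself was present in every library, at 2828 to 3293 normalised counts in MEFs and 1892 to 2817 in iPSCs and ESCs, and its level does not check the labels, since small insertions and deletions need not remove the transcript. Fibroblast markers summed to 402738 or more in each MEF library and to at most 607 in each iPSC or ESC library, and pluripotency markers summed to at most 79.4 in MEFs and at least 87421 in iPSCs and ESCs.

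MEF KO replicate 3 stood apart from the other 5 MEF libraries. Of the 39 members, 17 differed by more than 2-fold from both other KO MEF libraries, against 0 to 6 in each of the other libraries. Over all genes the share was 12.3% in this library and 2.08% to 5.69% in the others. Its Itga6 level was 1052 normalised counts against 7955 to 9258 in the other MEFs, and its Itga2 level was 69.9 against 606 to 726. Its epithelial markers summed to 421 (2828 and 3050 in the other KO MEFs), its keratinocyte markers to 583 (2831 and 2978) and its fibroblast markers to 580870 (402738 and 405798). iPSC KO replicate 1 differed in primitive and parietal endoderm markers, which summed to 2463 against 147 to 196 in the other 5 iPSC clones. By the 2-fold measure it did not stand apart, with 2 members and 4.57% of all genes, against 6 and 5.40% in iPSC KO replicate 3. Because all libraries share the estimate of spread, counts are also given with both of these libraries left out, a choice made after seeing the data.

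Per kb of exon, Itgb1 and Lamc1 held the first places in every WT group but MEFs, where Lamb1 and Itgb5 came before Lamc1. Itgb1, the beta subunit shared by most integrins, stood at 9281 normalised counts per kb in WT MEFs, 5371 at D3, 4420.5 at D7 and 1232 in ESCs. Lamc1, the gamma chain of most laminins, stood at 1966, 5528, 3488 and 1554 in the same groups. In WT MEFs Lamb1 stood at 2603 and Itgb5 at 2255, and the next after Itgb1 and Lamc1 in the other WT groups were Lamb1 at D3 (1416), Itgb4 at D5 and D7 (2298 and 1999) and Lama5 in iPSCs and ESCs (854.5 and 759.5). In counts, 25 members averaged 10 or more in all 12 groups, 37 did in at least 1 group, and Itgam and Itgb1bp2 did in none.

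**Figure D1:**
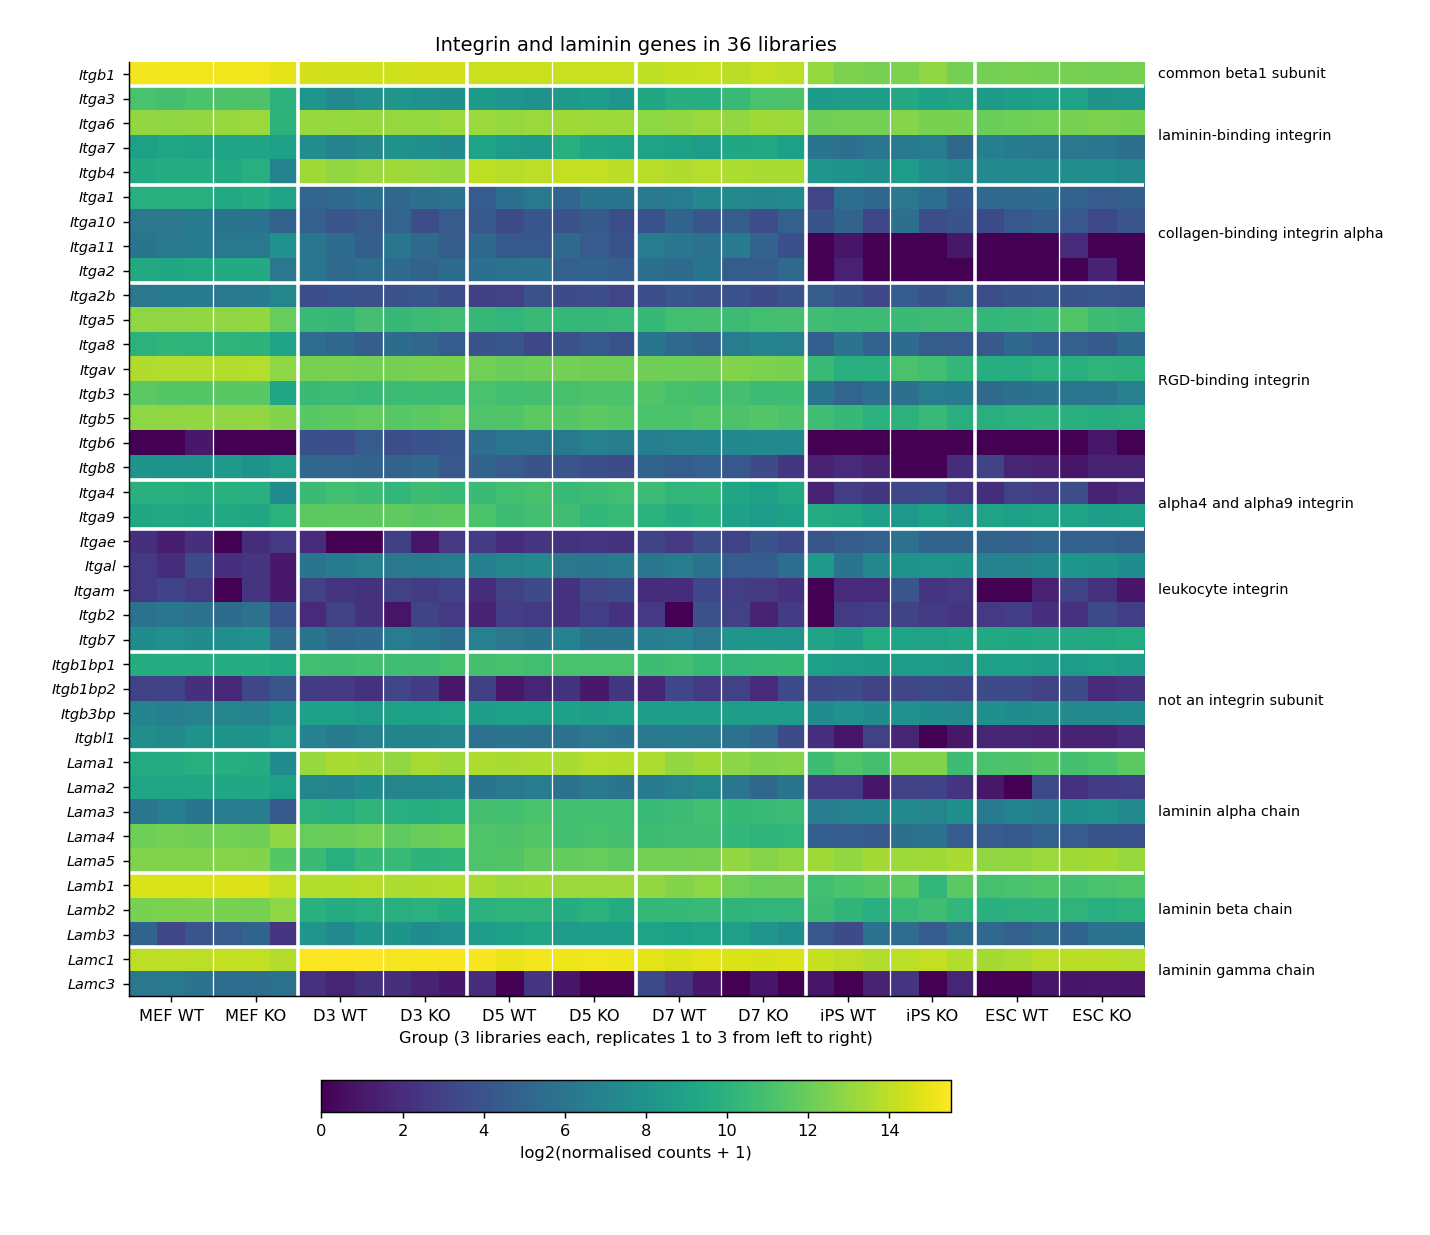
Heat map of log2(normalised counts + 1) for the genes (rows, grouped by role) in the 36 libraries (columns, 3 per group). Blocks change most between MEF and D3 and between D7 and iPS, and the third KO MEF library differs from its neighbours in many rows.

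From WT MEFs to D3, 3 of 4 collagen-binding alpha subunits and 7 of 8 RGD-binding subunits were lower at FDR < 0.05. Lama1, Lama3, Lamb3, Lamc1 and Itgb4 were higher. At that threshold 70.9% of all genes changed in either direction, and no share of all genes by direction is given for it. DEGs are genes with FDR < 0.05 (DESeq2, adjusted over all genes tested) and an absolute log2 fold change (log2FC) above 1. All 39 members were tested, 33 passed FDR (all genes: 70.9%), 10 were DEGs that rose (all genes: 19.5%) and 18 were DEGs that fell (25.4%). The median log2FC was -0.90 over the members and -0.01 over all genes tested.

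The DEGs that rose included Lama1, Itgb4, Lama3, Lamb3 and Lamc1. Lama1, an alpha chain of early embryonic basement membrane, averaged 790 normalised counts in WT MEFs and 10388 at D3 (log2FC 3.72 ± 0.38, SE). Itgb4, the beta subunit that pairs only with alpha6 in hemidesmosomes, rose from 767 to 9238 (3.59 ± 0.35), while its partner Itga6 was at 8089 and 8926 and did not pass the test. Lama3 and Lamb3, chains of the laminin of skin basement membrane, rose from 79.0 to 999 (3.67 ± 0.27) and from 18.8 to 242 (3.72 ± 0.47). Lamc1 rose from 16259 to 45726 (1.49 ± 0.11), the highest group mean of any member. Itga9, a receptor for tenascin and osteopontin, rose from 630 to 3233 (2.36 ± 0.18), and Itgal, the leukocyte alphaL subunit, from 5.93 to 84.9 (3.76 ± 0.54, and 4.38 without WT MEF replicate 3). Itgb6, which activates latent TGF-beta together with Itgav in epithelia, went from a single read in the 3 WT MEF libraries to 49 reads at D3, a ratio of 34.2 with a 95% exact counting interval of 5.85 to 1377. Of the genes that are not subunits, Itgb1bp1 and Itgb3bp also rose (1.21 ± 0.09 and 1.94 ± 0.16).

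Collagen-binding and RGD-binding subunits were among the genes that fell. Of 4 collagen-binding alpha subunits, 3 fell: Itga1 from 854 to 40.8, Itga2 from 671 to 52.1 and Itga10 from 74.9 to 21 (log2FC -4.39, -3.69 and -1.83). The remaining Itga11 was at 71.8 and 44.7. Of 8 RGD-binding subunits, 7 fell, among them the fibronectin receptor subunit Itga5 from 8012 to 1558 (-2.36 ± 0.20), Itgav from 13454 to 5081 (-1.41 ± 0.18), Itga8 from 1089 to 35.7 (-4.93 ± 0.35), and Itga2b, Itgb5 and Itgb8 with log2FC of -2.57, -1.29 and -2.92. The laminin receptors Itga3 and Itga7 fell (-3.23 ± 0.26 and -1.66 ± 0.24), as did the leukocyte subunits Itgb2 and Itgb7 (-3.73 and -2.07). Among laminins, Lama5 fell from 6162 to 1253 (-2.30 ± 0.21), Lamb2 from 5619 to 844 (-2.74 ± 0.16), Lama2, a chain of muscle laminin, from 570 to 147 (-1.95 ± 0.22) and Lamc3 from 68.2 to 3.18 (-4.41 ± 0.62). Itgbl1, a secreted protein with integrin-like repeats, was just past the DEG threshold (206.8 to 103.6). Itgb1 fell by less than the DEG threshold, from 37875 to 21920 (-0.79 ± 0.14). In the same step fibroblast markers fell in 8 of 8 tested, with sums of 430996 to 446435 in WT MEFs and 24674 to 32418 at D3, and epithelial markers rose in 6 and fell in 2 of 8, with sums of 1881 to 2153 and 21622 to 27944. The part of these cell types in the changes of the members was not tested.

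From D3 to D5 in WT cells, 10 of 39 passed FDR (all genes: 25.1%), with 4 DEGs higher (all genes: 4.94%) and 1 lower (1.84%). Among the 4 were Itgb6 (15.7 to 60.8 normalised counts, log2FC 1.95 ± 0.30), Itga7 (159 to 405, 1.35 ± 0.24) and Lama5 (1253 to 2806, 1.16 ± 0.21), and the lower one was Itga8 (35.7 to 13.5, -1.40 ± 0.41). From D5 to D7, 11 of 38 tested members passed FDR (24.1%), again with 4 DEGs higher (4.74%) and 1 lower (1.07%). The 10 of 39 were 25.6%, near the share of all genes. Fits of only the compared groups gave 22 members past FDR from D3 to D5 and 20 from D5 to D7. Shares of all genes past FDR are given for the main fit alone. Counts of members in any alternative fit therefore cannot be set against those shares. Itga3 rose from 296 to 755 (1.35 ± 0.26), Itga8 from 13.5 to 44.3 (1.72 ± 0.41), Itga1 from 49.3 to 104 (1.08 ± 0.39) and Itga11 from 24.1 to 72.5 (1.59 ± 0.61), while Itga9 fell from 1926 to 897 (-1.10 ± 0.18). The calls for Itga1 and Itga11 were not stable: Itga1 lost FDR in 4 and Itga11 in 6 of 12 alternative fits, with FDR up to 0.198 and 0.165.

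In WT cells, 11 of 39 members had all 9 reprogramming libraries above all 9 MEF, iPSC and ESC libraries (all genes: 13.3%). Among them were Itga4, Itga9, Itgb4, Itgb6, Itgb1bp1, Itgb3bp, Lama1, Lama3, Lamb3 and Lamc1. In KO cells 9 members met the same rule (all genes: 9.71%), and all of those also met it in WT. Itga4 and Itga9 were the 2 that met it in WT alone, since their D7 KO levels reached down to 444 and 378, below the highest KO level outside reprogramming (947 and 981). The ranges are given as a description. Itgb4 spanned 8115 to 17150 in WT reprogramming libraries and 168 to 794 in the others. Lama3 spanned 849 to 2179 against 64.7 to 126.5, and Lamb3 164 to 568 against 9.09 to 59.4. Itgb6 spanned 12 to 129 and did not exceed 1.06 elsewhere. Keratinocyte markers summed to 16851 to 32508 in WT reprogramming libraries, 2519 to 2724 in WT MEFs and 153 to 564 in WT iPSCs and ESCs. From WT MEFs to D3, 4 of the 5 tested rose and 1 fell, and from D7 to WT iPSCs all 5 fell. The part of keratinocytes in the levels of the members was not tested.

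**Figure D2:**
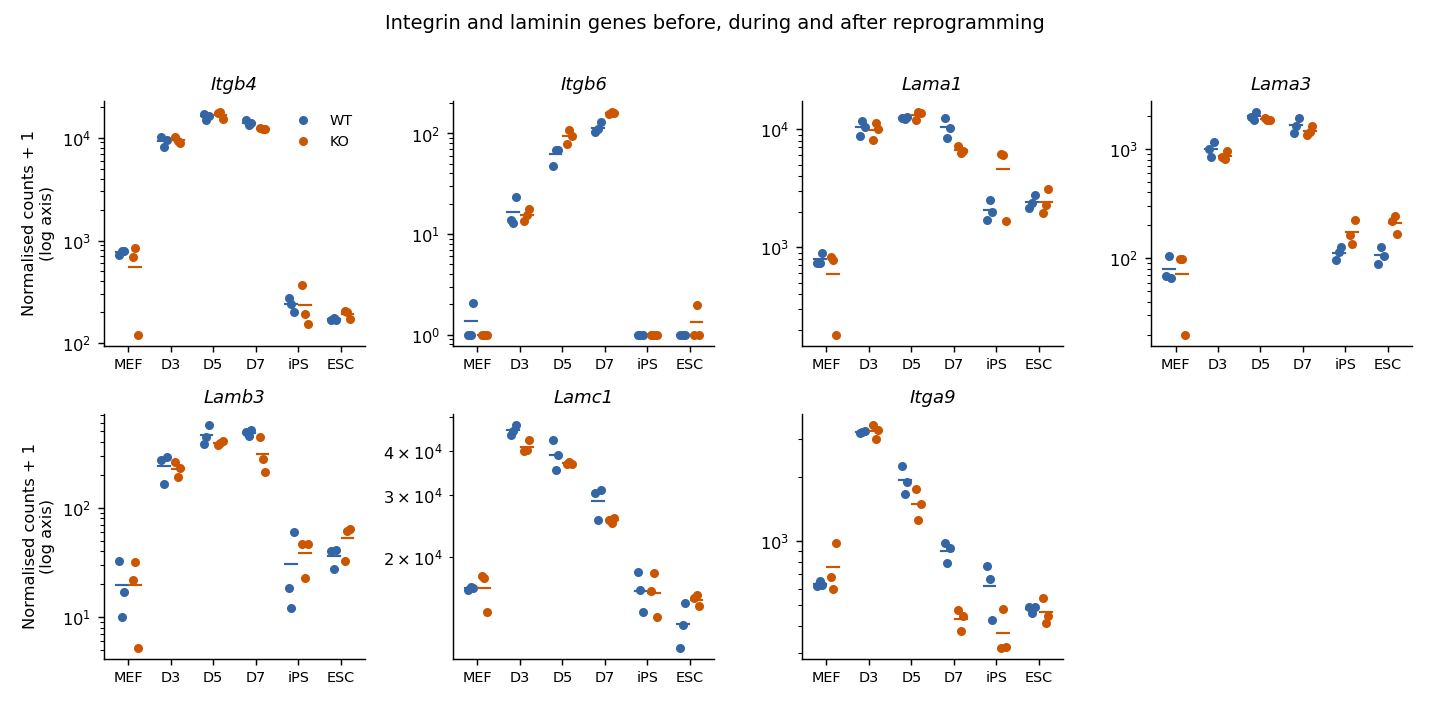
Normalised counts + 1 (log axis) of 7 genes by stage, with WT libraries in blue, KO libraries in orange and a bar at the mean of 3. Itgb4, Itgb6, Lama1, Lama3, Lamb3 and Lamc1 sit higher at D3, D5 and D7 than before or after in both genotypes, and Itga9 peaks at D3.

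The laminin alpha chains changed in proportion as well as in amount. Of all alpha-chain counts per kb of exon in WT MEFs, Lama5 made up 51.6% ± 1.00 (SD, n = 3), Lama4 36.5% ± 1.15 and Lama1 7.79% ± 0.913. At D3 Lama1 made up 65.1% ± 4.37, Lama4 21.8% ± 1.43 and Lama5 6.83% ± 2.39. By D7 Lama5 was at 24.8% ± 3.04 in WT cells, and in WT ESCs it was at 74.3% ± 0.762 with Lama1 at 24.5% ± 0.731. Lama4, a chain of endothelial and mesenchymal basement membranes, made up 0.180% ± 0.0262 of the alpha chains in WT ESCs. Among beta chains Lamb1 had the highest mean share at every WT stage, from 89.0% ± 1.31 at D3 to 52.6% ± 11.5 in iPSCs, where Lamb2 led in replicate 1 (59.1% against 40.4%).

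**Figure D3:**
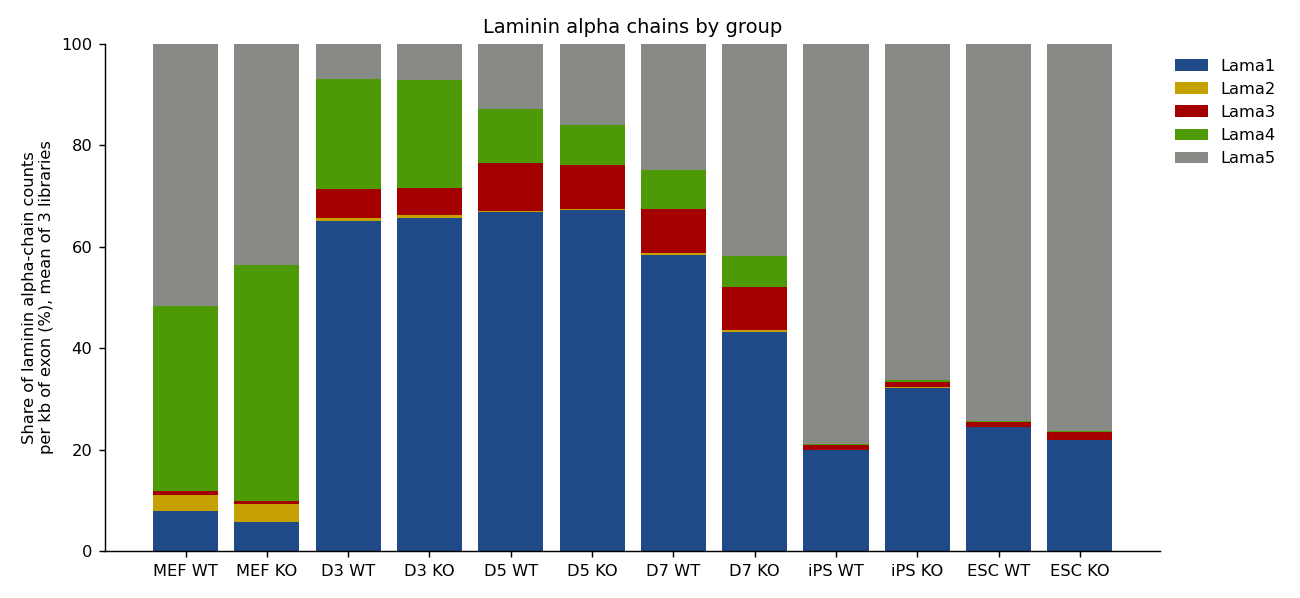
Share of each laminin alpha chain in all alpha-chain counts per kb of exon (%, stacked means of 3 libraries) for the 12 groups. Lama4 and Lama5 fill most of the MEF bars, Lama1 most of the D3 and D5 bars, and Lama5 most of the iPS and ESC bars; at D7 the KO bar holds 41.8% Lama5 and the WT bar 24.8%.

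Between D7 and WT iPSCs most members fell. All 39 were tested, 31 passed FDR (all genes: 73.5%), 3 DEGs rose (all genes: 20%) and 22 fell (25%), with a median log2FC of -1.70 against 0.01 over all genes. Itgb4 and the laminin chains Lamb3, Lama3 and Lama1 fell: Itgb4 from 14024 to 238 (log2FC -5.88 ± 0.36), Lamb3 from 484 to 29.3 (-4.05 ± 0.43, and -5.09 without WT iPSC replicate 3), Lama3 from 1652 to 112 (-3.89 ± 0.26) and Lama1 from 10358 to 2052 (-2.34 ± 0.38). Itgb6 had no read in the 3 WT iPSC clones and was at least 42.8-fold lower than at D7. Itga4, the VCAM1 receptor subunit, fell from 1324 to 4.13 (-8.33 ± 0.51), and Itgb3, the vitronectin receptor subunit, from 2166 to 48.6 (-5.48 ± 0.34). Lama4 went from 1703 to 22.0 (-6.27 ± 0.24), Lama2 from 110 to 3.76 (-4.84 ± 0.46), Lamb1 from 7306 to 2250 (-1.70 ± 0.20) and Itgb1 from 18040 to 6535 (-1.47 ± 0.14). Itga1, Itga7, Itgav, Itgb8, Itgbl1, Itgb1bp1 and Itgb3bp fell by log2FC of -1.74, -2.86, -2.09, -3.70, -4.27, -2.10 and -1.05, where Itgbl1 was at -5.10 without WT iPSC replicate 3. Itga2 and Itga11 were left with 2 and 1 reads in the 3 clones, ratios of 88.6 (24.1 to 739) and 246 (43.7 to 9775) between D7 and iPSCs. Lamc3 was low on both sides, with 15 reads at D7 and 3 in iPSCs (ratio 5.76, 1.63 to 31.0), and its call was lost in 3 of 12 alternative fits.

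The 3 DEGs that rose were leukocyte integrin subunits. Itgb7, the gut-homing beta subunit, was at 97.4, 115 and 73.1 normalised counts in the WT D7 libraries and at 536, 424.5 and 758 in WT iPSCs (log2FC 2.59 ± 0.34). Itgae, its alpha partner in intraepithelial lymphocytes, averaged 8.50 and 22.8 (1.42 ± 0.46). Itgal averaged 72.1 and 184 (1.35 ± 0.38), but its iPSC values of 343, 62.9 and 147 overlapped those of D7, and the call was lost without WT iPSC replicate 1 (FDR 0.127). Of 7 macrophage and other leukocyte markers in the table, 1 was higher in WT iPSCs than at D7 (Laptm5) and 4 were lower. Their sum was 573 to 780 at D7 and 2450 to 3736 in iPSCs, Ptprc was at most 0.86 in the clones, and Adgre1 and Tyrobp were at 0 in all 3. Itgb2, the usual partner of Itgal, was at most 6.50. The part of such cells in these levels was not tested. Lama5 rose from 5089 to 9731 without reaching the DEG threshold (0.94 ± 0.21).

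Between WT iPSCs and WT ESCs no member of 26 tested passed FDR in DESeq2 or in edgeR (all genes: 3.2%), and 5 had an unadjusted p below 0.05. Without WT iPSC replicate 3 there were 6 that passed, and without MEF KO replicate 3 and iPSC KO replicate 1 there were 4: Lamc1, Itgb1, Itgb4 and Itgb5, all lower in ESCs (log2FC -0.31 to -0.49). No share of all genes is given for these fits. From WT MEFs to WT ESCs, 35 of 39 passed (79.3%), with 4 DEGs higher (26%) and 25 lower (29.4%), and the median log2FC was -2.48. The 4 higher in ESCs were Lama1 (790 to 2430, log2FC 1.62 ± 0.38), Itgal (5.93 to 129, 4.37 ± 0.54, and 4.99 without WT MEF replicate 3), Itgb7 (197 to 659, 1.74 ± 0.33) and Itgae (2.73 to 31.4, 3.51 ± 0.69). All 4 collagen-binding alpha subunits were lower DEGs (all genes: 29.4%). No Itga2 or Itga11 read was in the WT ESC libraries, so these genes were at least 233-fold and 24.9-fold lower than in WT MEFs. Of the 8 RGD-binding subunits 7 were lower DEGs (all genes: 29.4%). They ran from Itga2b (-2.42) and Itga5 (-2.61) through Itgb5 (-3.04) and Itgav (-3.95) to Itga8 (-5.38), Itgb3 (-5.85) and Itgb8 (-6.04, and -7.07 without WT ESC replicate 1). Itgb1 was lower by -2.91 ± 0.14, Itga4 by -7.35 ± 0.49, and Itga3, Itga7 and Itgb4 by -2.42, -2.51 and -2.17. Among laminins Lama4 (-7.68 ± 0.24), Lama2 (-7.23 ± 0.47, and -10.14 without WT ESC replicate 3), Lamb1 (-3.56 ± 0.20) and Lamb2 (-2.48 ± 0.16) were lower, and Lamc3 kept 1 read in the 3 ESC libraries against 146 in MEFs (ratio 210, 37.1 to 8359). Itgb2, Itgam and Itgbl1 were lower too (-3.63, -3.26 and -6.76), Itgam from a mean of only 6.03 and with -5.02 without WT ESC replicate 3.

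Before D7 no member passed the test between KO and WT cells in the main fit. In MEFs none of 39 members passed FDR in DESeq2 or edgeR (all genes: 0.0428%), and 1 had an unadjusted p below 0.05. At D3 none of 32 tested passed in either tool (0.493%), with 0 at an unadjusted p below 0.05, and at D5 none of 34 passed in either tool (7.15%), with 8. Leaving out MEF KO replicate 3 and iPSC KO replicate 1 gave 0 members in MEFs, 0 at D3 and 3 at D5. A fit of the D5 libraries alone gave 6 at D5. The replicate block gave 1 at D5, as did leaving out D5 WT replicate 1 or D5 KO replicate 3. No share of all genes is given for these fits. The 3 without MEF KO replicate 3 and iPSC KO replicate 1 were Itga2 (log2FC -1.06 ± 0.25, FDR 0.000735), Lama4 (-0.35 ± 0.10, FDR 0.00991) and Itga7 (0.68 ± 0.23, FDR 0.0351). With all libraries these 3 had FDR of 0.241, 0.231 and 0.0508.

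At D7, 14 of the 39 members passed FDR, which is 35.9% against 29.4% of all genes tested. Of the 14, 4 were higher in KO cells (all genes: 13.3%) and 10 were lower (16.1%), and 10 were DEGs (8.37%), 3 higher and 7 lower. KO and WT libraries did not overlap for 23 of 39 members (46.7% of all genes). The median log2FC of the members was -0.17 against -0.04 for all genes tested. With both libraries left out, 18 members passed, and no share of all genes is given for that fit. Among the 4 added were Itga2 (-0.90 ± 0.25, FDR 0.0018), Itgav (0.35 ± 0.13, FDR 0.0208) and Itgb3 (-0.31 ± 0.11, FDR 0.021).

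**Figure D4:**
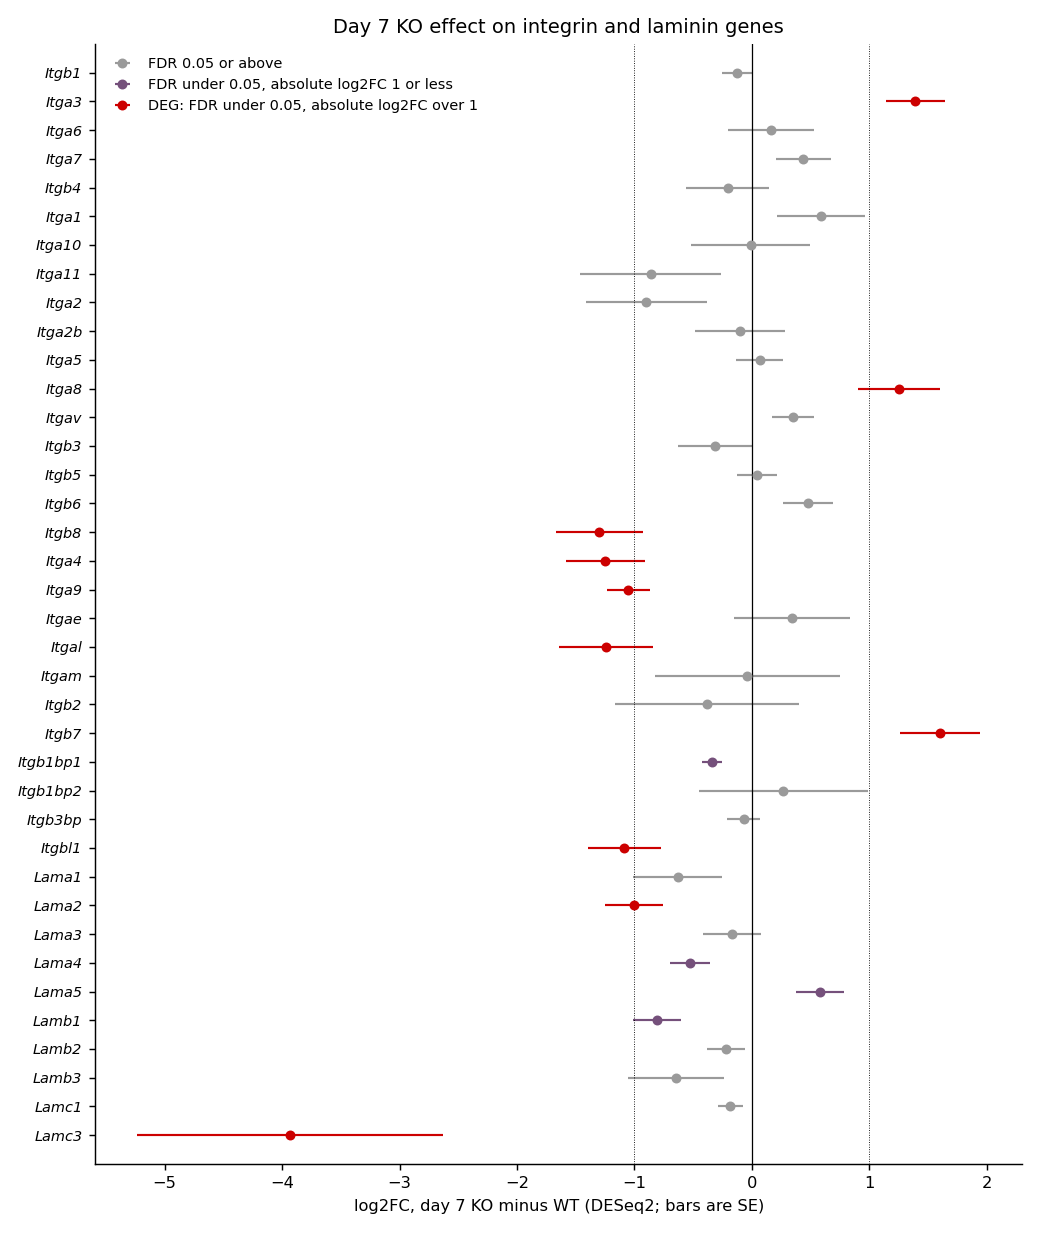
log2FC of D7 KO minus D7 WT by gene, with bars of 1 SE from DESeq2, coloured by whether the gene passed FDR < 0.05 and an absolute log2FC of 1 (dotted lines). Itga3, Itga8 and Itgb7 lie right of 1, 7 DEGs lie left of -1, and Lamc3 has the widest bar, 1.30.

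The 3 higher DEGs were integrin subunits. Itga3 (chr11:95044474-95076801, minus strand, 27 merged exons) encodes the alpha3 subunit that binds laminins of epithelial basement membrane. It had 640, 800.5 and 825 normalised counts in the WT D7 libraries and 1468, 2137 and 2335 in the KO libraries. Every KO library was above every WT library, and the log2FC was 1.39 ± 0.25 (FDR 6.32e-07). For comparison, Itga3 averaged 2128 in WT MEFs and 397 in WT ESCs. Itgb7 (chr15:102215995-102231944, minus strand, 16 merged exons) had 97.4, 115 and 73.1 in WT and 278, 299 and 290 in KO cells (1.60 ± 0.34, FDR 2.84e-05). The KO values lay between those of WT D7 cells and the WT iPSC mean of 573. Itga8 (chr2:12106632-12301922, minus strand, 33 merged exons), an RGD-binding subunit of mesenchyme and kidney, had 64.9, 38.3 and 29.8 in WT and 89.4, 120 and 107 in KO cells (1.25 ± 0.35, FDR 0.00217).

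The 7 lower DEGs included both alpha subunits of the alpha4 and alpha9 class. Itga9 (chr9:118606690-118901003, plus strand, 32 merged exons) had 981, 787 and 923 normalised counts in WT and 475, 378 and 447 in KO cells (log2FC -1.05 ± 0.19, FDR 3.2e-07). Itga4 (chr2:79255426-79333123, plus strand, 27 merged exons) had 1576, 1176 and 1220 in WT and 570, 444 and 658 in KO cells (-1.25 ± 0.34, FDR 0.00146). Neither gene's groups overlapped, and both genes were lower in WT iPSCs than in WT D7 cells. Itgb8, which presents latent TGF-beta with Itgav, had 31.4, 23.2 and 25.7 in WT and 18.1, 10.5 and 4.54 in KO cells (-1.30 ± 0.37, FDR 0.00271). Its call was lost without D7 KO replicate 3 (FDR 0.0598) and in a fit of the D7 libraries alone (0.0749). Itgal had 66.9, 92.6 and 56.6 in WT and 22.1, 21.9 and 47.2 in KO cells (-1.24 ± 0.40, FDR 0.0097). It lost FDR without D7 WT replicate 2, D7 KO replicate 1 or D7 KO replicate 2 (FDR 0.0654 to 0.0779). Itgbl1 had 72.0, 79.6 and 71.0 in WT and 55.2, 39.4 and 10.9 in KO cells (-1.09 ± 0.31, FDR 0.00316), with the lowest value in D7 KO replicate 3. Its FDR stayed below 0.05 in all 12 alternative fits (at most 0.0456). Its log2FC ranged from -1.55 to -0.66 in them, so it was not a DEG in every fit.

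Lama2 and Lamc3 were the laminin chains among the DEGs. Lama2 (chr10:26980036-27619758, minus strand, 66 merged exons) had 82.2, 108 and 139 normalised counts in WT and 66.3, 37.6 and 60.8 in KO cells (log2FC just past -1, SE 0.25, FDR 0.000406). Lamc3 had 10.1, 4.03 and 1.03 in WT and 0, 0.88 and 0 in KO cells, which is 15 reads against 1 (ratio 16.5, 95% exact counting interval 2.53 to 693, FDR 0.0117). The fitted log2FC of Lamc3 rests on that read and is no bound, and the call was lost without D7 WT replicate 1, D7 KO replicate 1 or D7 KO replicate 3 (FDR 0.0825 to 0.112). The 4 members that passed FDR below the DEG threshold were Lamb1, Lama4, Itgb1bp1 and Lama5. Lamb1, the beta chain of the embryonic laminin, had 8092, 6360 and 7468 in WT and 4694, 3801 and 4025 in KO cells (-0.81 ± 0.20, FDR 0.000484). Lama4 had 1674, 1727 and 1709 in WT and 1235, 1111 and 1196 in KO cells (-0.53 ± 0.17, FDR 0.00848). Itgb1bp1, which binds the tail of the beta1 subunit and restrains its activation, averaged 1651 and 1303 (-0.34 ± 0.08, FDR 0.000471). Lama5 rose, from 4913, 5069 and 5284 in WT to 8276, 6728 and 7808 in KO cells (0.58 ± 0.21, FDR 0.0216). The groups of Lama5 did not overlap, but its FDR was 0.0554 to 0.0952 without D7 WT replicate 1 or 2 or D7 KO replicate 1 or 3.

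**Figure D5:**
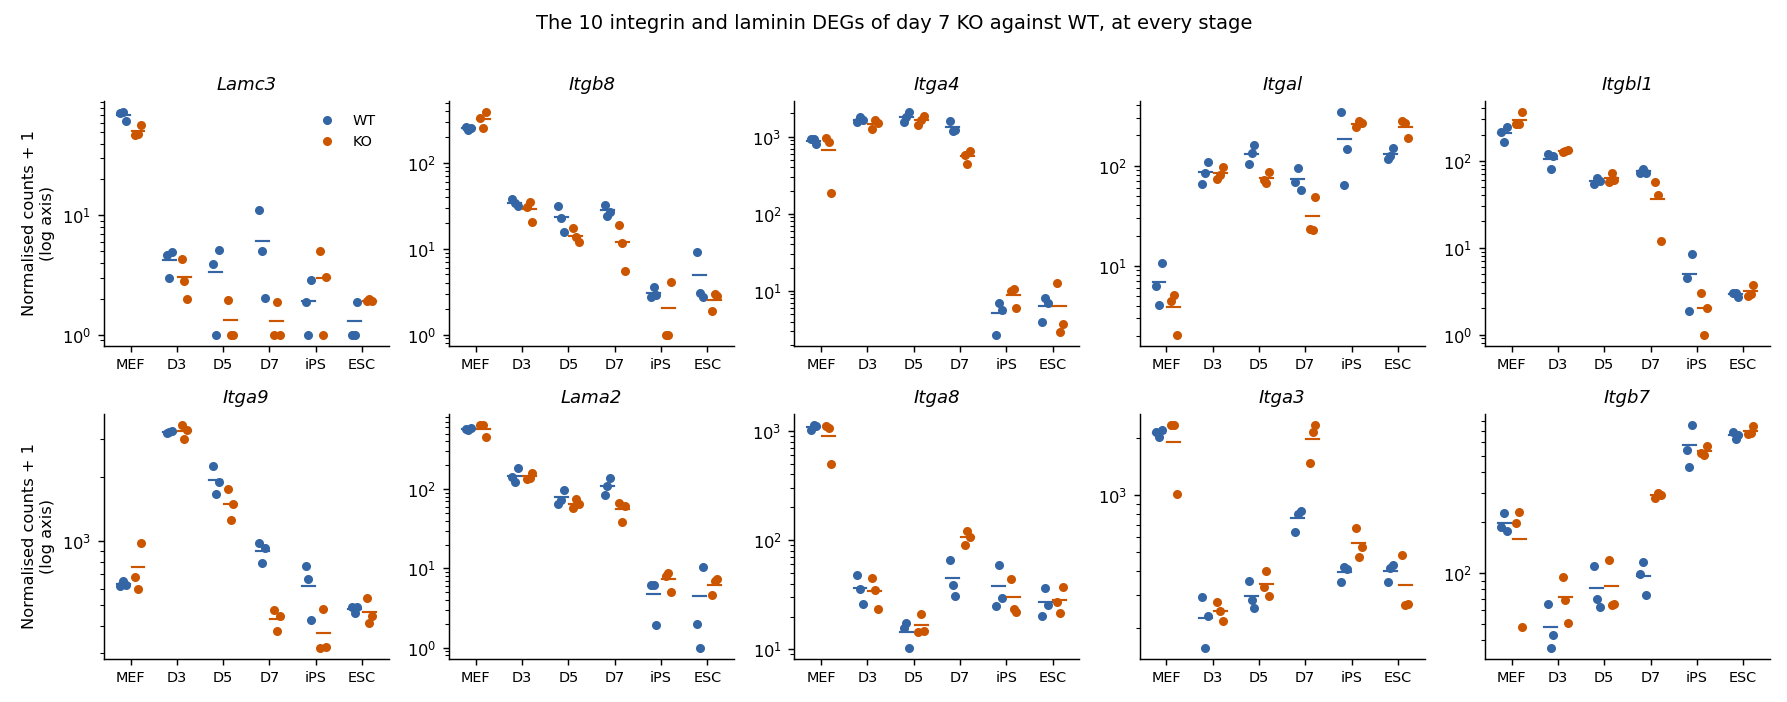
Normalised counts + 1 (log axis) at each stage for the 10 DEGs of D7 KO against WT, with WT libraries in blue, KO libraries in orange and a bar at the mean of 3. At D7 the orange points of Itga3, Itga8 and Itgb7 lie above all blue points and those of the other 7 genes below, while at D3 none of the 10 passed FDR.

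Promoter windows were taken from RefSeq (GRCm38.p6), each holding 250 bases before and 50 after an annotated start. They were at hand for 25 of the 39 members. Shown are the windows of the DEGs with a window and the lowest FDR at D7, 2 that rose (Itga3 and Itgb7) and 2 that fell (Itga9 and Lama2), so that the sequence can be set beside the counts above. Itga3 has a further RefSeq window within the gene, which is not printed. The windows are Itga3 at chr11:95076665-95076964 (minus strand), Itgb7 at chr15:102231886-102232185 (minus strand), Itga9 at chr9:118711442-118711741 (plus strand) and Lama2 at chr10:27616893-27617192 (minus strand). Those of Itga9 and Lama2 lie inside the gene as GENCODE draws it, and so are not at its outermost start. Itga9 begins at 118606690 on the plus strand, far before its window, and Lama2 at 27619758 on the minus strand, nearer to its window. Which start the counted transcripts used was not tested. Each is printed 5′ to 3′ on the strand of the gene, in lower case, with matches of either strand to 4 motifs in capitals: TGANTCA (AP-1), ACATTCC (TEAD), GGGCGG (the GC box of SP and KLF factors) and CAGGTG (the E-box of Snail and Zeb factors).
Itga3: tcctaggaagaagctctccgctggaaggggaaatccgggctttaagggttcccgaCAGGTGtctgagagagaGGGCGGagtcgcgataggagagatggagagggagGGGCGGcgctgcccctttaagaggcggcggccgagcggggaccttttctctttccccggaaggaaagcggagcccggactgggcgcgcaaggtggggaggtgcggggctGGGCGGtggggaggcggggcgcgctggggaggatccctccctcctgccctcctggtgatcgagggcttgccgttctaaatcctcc
Itgb7: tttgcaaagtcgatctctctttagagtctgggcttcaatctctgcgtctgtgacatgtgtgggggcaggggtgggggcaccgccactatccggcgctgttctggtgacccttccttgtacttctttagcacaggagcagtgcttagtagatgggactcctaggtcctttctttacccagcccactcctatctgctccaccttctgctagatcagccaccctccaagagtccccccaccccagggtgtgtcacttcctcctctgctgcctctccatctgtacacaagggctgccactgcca
Itga9: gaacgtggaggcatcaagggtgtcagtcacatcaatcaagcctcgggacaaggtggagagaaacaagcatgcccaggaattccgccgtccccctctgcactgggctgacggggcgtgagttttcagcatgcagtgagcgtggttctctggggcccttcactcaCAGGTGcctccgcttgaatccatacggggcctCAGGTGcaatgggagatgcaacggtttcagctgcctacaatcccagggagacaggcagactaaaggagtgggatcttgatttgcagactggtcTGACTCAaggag
Lama2: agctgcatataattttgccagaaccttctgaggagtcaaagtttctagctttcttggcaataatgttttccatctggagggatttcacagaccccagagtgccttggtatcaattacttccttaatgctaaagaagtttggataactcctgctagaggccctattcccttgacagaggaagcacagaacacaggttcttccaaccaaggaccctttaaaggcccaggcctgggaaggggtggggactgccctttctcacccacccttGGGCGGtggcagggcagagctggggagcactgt
The Itga3 window held 3 GC boxes and 1 E-box, the Itga9 window 2 E-boxes and 1 AP-1 match, the Lama2 window 1 GC box and the Itgb7 window none of the 4 motifs. Over the 28 windows of the members, the GC box was in 46.4% (35.7% of all 32851 promoter windows), the E-box in 28.6% (20.2%), the AP-1 motif in 7.14% (7.81%) and the TEAD motif in 3.57% (3.85%). These matches describe letters in a window and not bound sites.

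Of the 4 laminin-binding integrin subunits Itga3 alone passed the test at D7, and neither Itgb1 nor the fibronectin receptor subunit Itga5 did. Itgb1 averaged 18040 in WT and 16562 in KO cells (log2FC -0.12 ± 0.14), Itga6 8432 and 9430 (0.16 ± 0.36), Itgb4 14024 and 12149 (-0.21 ± 0.35) and Itga5 1710.0 and 1789 (0.06 ± 0.20). Chains of epithelial laminin gave 1652 and 1468 for Lama3 (-0.17 ± 0.25) and 484 and 309 for Lamb3 (-0.65 ± 0.41). Lama1 was at 12487, 8356 and 10230 in WT and 7172, 6282 and 6595 in KO cells, without overlap (-0.63 ± 0.38, FDR 0.215). In shares per kb, Itga3 made up 11.8% ± 0.673 (SD, n = 3) of the laminin-binding alpha subunits in WT and 23.4% ± 2.95 in KO cells, and Itga6 83.3% ± 1.05 and 71.4% ± 1.79. Lama1 made up 58.5% ± 5.60 of the alpha chains in WT and 43.3% ± 1.12 in KO cells, and Lama5 24.8% ± 3.04 and 41.8% ± 1.34. No library of either genotype overlapped in these 4 shares. An exact permutation test of 3 against 3 cannot go below p = 0.1, so no p is given for them.

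The direction at D7 was set beside the WT contrast of ESCs with MEFs, which uses no D7 library. Of the 14 members past FDR at D7, all passed in that contrast too, and 11 (78.6%) had the same sign in both. Over all genes that passed in both, 3999 of 5362 (74.6%) had the same sign, so the members were near the background. The 3 with opposite signs were the higher DEGs Itga3 and Itga8, which WT ESCs express less than WT MEFs, and Itgal, which was lower in D7 KO cells and higher in ESCs.

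Other genes of adhesion moved at D7 in both directions. Of 20 adaptors and focal adhesion genes, 6 were higher and 2 lower in KO cells (all genes: 13.3% higher and 16.1% lower). Those with the lowest FDR were the kinase Src (log2FC 0.92 ± 0.15), the parvin Parvb (1.79 ± 0.31), the tensin Tns3 (0.70 ± 0.12) and, lower in KO cells, Fermt3, the kindlin of blood cells (-0.61 ± 0.11). Of 11 basement membrane partners and other laminin receptors, 5 were higher and 1 lower. Bcam, a receptor for Lama5, was higher by 1.98 ± 0.26, Agrn, the basement membrane proteoglycan agrin, by 0.95 ± 0.16 and Dag1, which encodes dystroglycan, by 0.67 ± 0.13, while the syndecan Sdc1 was lower (-0.63 ± 0.13). Of 12 other integrin ligands, 1 was higher, the fibronectin gene Fn1 (0.55 ± 0.22, named after its value was seen), and 4 were lower: Vcam1 (-1.14 ± 0.43), Col1a1 (-1.25 ± 0.41), Npnt (-0.89 ± 0.28) and Fbln5 (-0.86 ± 0.32). At D5, 1 of the 20 adaptors was higher (Actn1, 0.60 ± 0.10) and 1 of the 11 basement membrane genes lower (Nid2, -0.45 ± 0.15), and no gene of the 3 lists passed in MEFs or at D3. All 9 pluripotency markers at D7 were higher in KO cells, with sums of 7470 to 10781 in WT and 23657 to 29204 in KO libraries. Of the fibroblast markers 3 of 8 tested were lower, with sums of 22186 to 34183 in WT and 7030 to 21561 in KO libraries, keratinocyte markers summed to 17181 to 25141 and 13437 to 16030, epithelial markers to 60028 to 64854 and 60392 to 62398, and macrophage and other leukocyte markers to 573 to 780 and 1066 to 1242. Of the leukocyte markers 1 of 6 tested was higher in KO cells and 5 did not pass FDR, with a median log2FC of -0.32. No fibroblast, pluripotency or keratinocyte marker in the table was at 0 in either D7 group. The part of all these cell types in the changes of the members was not tested.

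The KO effect at D7 was tested against that at D3. Of 34 members tested, 5 differed (all genes: 13%): Itga3, Itga9, Itgb1bp1, Itgbl1 and Lama2. With both libraries left out 11 differed, and no share of all genes is given for that fit. The added ones were Itga4, Itga8, Itgb7, Lama4, Lama5 and Lamb1. At D3 itself Itga3 had 291, 157 and 232 normalised counts in WT and 274, 245 and 217 in KO cells, and Itga9 had 3185, 3237 and 3277 in WT and 3481, 2984 and 3304 in KO cells, so the groups overlapped for both.

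In iPSC clones, 4 of 39 members passed FDR (all genes: 16.3%) and 2 were DEGs (4.51%). Lama1 had 1690, 2489 and 1977 normalised counts in WT clones and 6195, 6057 and 1653 in KO clones (log2FC 1.18 ± 0.38, FDR 0.0167). The third KO clone was below every WT clone. Lama4 had 24.2, 22.4 and 19.5 in WT and 52.9, 58.2 and 22.2 in KO clones (1.02 ± 0.26, FDR 0.00189), again high in 2 of 3. Itgav averaged 1070 and 1723 (0.69 ± 0.18, FDR 0.00222), and Itga9 618 and 372 (-0.73 ± 0.19, FDR 0.0016). KO and WT clones overlapped for each of the 4. Without iPSC KO replicate 1, Lama1 and Itgav lost FDR (0.166 and 0.0689), without iPSC KO replicate 2 Lama1 and Lama4 did (0.108 and 0.0511), without iPSC WT replicate 1 Lama1 did (0.0635), and fitted on the iPSC libraries alone none of the 4 passed (0.0994 to 0.328).

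Matrix partners varied between the same clones. Col4a1 and Col4a2, the collagen IV chains of all basement membranes, were higher in KO iPSCs (log2FC 3.11 ± 0.47 and 3.34 ± 0.48). Col4a1 had 235, 304 and 223 normalised counts in WT clones and 4846, 1408 and 303 in KO clones. Beside the 16.3% of all genes that passed, of 11 basement membrane genes 4 were higher and 1 lower, of 12 other ligands 5 were higher, led by Col1a2 (3.50 ± 0.74), Mfge8 (0.79 ± 0.19), Npnt (1.26 ± 0.32) and Thbs1 (1.47 ± 0.53), and of 20 adaptors 2 were higher and 1 lower (Tns1, 1.66 ± 0.30, Fermt3, 0.99 ± 0.20, and Tns3, -0.63 ± 0.12). Col1a2 is among the 9 fibroblast markers, which together summed to 176, 248 and 175 normalised counts in WT clones. In KO clones they summed to 607, 222 and 261, so Col1a2 was low in every clone. Of 8 primitive and parietal endoderm markers 6 were higher in KO clones, with the sum of 2463 in the first KO clone against 196 and 170 in the others. The part of endoderm cells in these levels was not tested. With both libraries left out 8 passed in KO iPSCs, among them Itgb3 (0.88 ± 0.20), Lama3 (0.68 ± 0.20) and Itgb4 (-0.47 ± 0.14). No share of all genes is given for that fit, so the 8 cannot be set against the 16.3%.

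In ESCs, 1 of 34 tested members passed FDR (all genes: 10.1%). Lama3 had 87.4, 126.5 and 103 normalised counts in WT and 218, 243 and 167 in KO ESCs, without overlap (log2FC 0.99 ± 0.27, FDR 0.00545). Of the lists above, where 10.1% of all genes passed, Vcl (0.38 ± 0.10), Fermt3 (0.95 ± 0.21), Nid1 (0.52 ± 0.17) and Col1a1 (2.37 ± 0.69) were higher in KO ESCs. Col1a1 was low, since the 9 fibroblast markers that include it summed to 140 to 168 in WT and 149 to 199 in KO ESCs. The FDR of Lama3 was 0.0642 when ESC WT replicate 1 was left out and 0.0625 when ESC KO replicate 2 was. With the MEF and iPSC libraries named above left out 5 members passed, the added ones including Itga6 (0.31 ± 0.07), Itgb3 (0.70 ± 0.18) and Itga5 (0.52 ± 0.15). No share of all genes is given for that fit. The difference between the KO effects in iPSCs and in ESCs passed FDR for 1 of 34 members, Lama4 (all genes: 1.47%). Without those libraries it passed for 2, again with no share of all genes given.

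The kit marked the strand of origin, but the sources used here do not state whether counting used it, and 10 members share exon bases with a gene on the opposite strand: Itga4, Itga7, Itga8, Itgav, Itgb1bp1, Itgb3bp, Itgb4, Lama2, Lama3 and Lamc3. The overlap was largest for Itga4, at 1124 of 13978 exon bases. Itga1, Itga10 and Itgam share exon bases with a gene on the same strand, 3450 of 5024 in Itgam.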

How the data were processed

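The authors trimmed reads with cutadapt, checked them with FastQC, aligned them to GRCm38.p6 with STAR and counted them per gene with Rsubread; tool versions and the strand setting of counting are not given in the sources used here. The deposited tables hold raw counts for 21442 genes and a normalised signal, in which the authors divided counts by 1 factor per library (the median-ratio size factors of DESeq2). The log-scale matrix corrected by the authors for library preparation batches and their tables of fold changes and p-values, which hold their own tests, were not used. Those batches are not in the labels used here, so a batch and a group cannot be told apart.

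Counts of all 36 libraries were fitted in DESeq2 1.42.0 (R 4.3.3) with 1 factor of 12 groups, median-ratio size factors, Wald tests without shrinkage and default independent filtering. FDR is the Benjamini-Hochberg adjusted p over all genes tested, with 0.05 as the threshold, and DEGs also have an absolute log2FC above 1. The scripts were tested on simulated counts. Levels per kb use merged exons of GENCODE M21, in which 21417 of the 21442 genes were found. Alternatives were edgeR 4.0.16 (quasi-likelihood), TMM factors, a filter at 10 counts, only the compared groups, the replicate number as a block, and leaving out each library. A further alternative left out both MEF KO replicate 3 and iPSC KO replicate 1 (chosen after seeing the data, the latter for its endoderm markers alone). Tables and plots used Python 3.11.15, pandas 2.3.3, numpy 2.4.6 and matplotlib 3.10.9.

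Members are named with their values where they passed FDR (KO against WT) or were DEGs (WT stages), Itgb1 and laminin chains in any case, and from each list of partner genes up to 4 with the lowest FDR. The counts cover all 39 members, but results of 1 of them are not reported here, in the text or the plots. Members, lists and the rule were chosen with earlier results of these data known. Of the other integrin ligands 12 of 13 and of the keratinocyte markers 5 of 6 were in the table. Pairing of same-numbered libraries was judged from the data where r was over 0.1 in all 3 pairs. That held for D3 KO against WT (r 0.101 to 0.456), D7 KO against WT (0.172 to 0.392) and WT D7 against D5 (0.116 to 0.259). The other comparisons missed this cutoff. Of those, D5 KO against WT (0.09 to 0.268) and WT D5 against D3 (0.061 to 0.208) were still positive in all 3 pairs. The main fit used no pairing, so its FDR values are unpaired throughout. Only the replicate block, an alternative fit, used the replicate numbers. Library totals of 19224103 to 39610939 counts set the precision. Intervals and floors cover counting error only. Replicates of MEF and reprogramming groups are not stated to come from separate embryos, so p-values measure the spread between these samples, which may be technical.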

Additional observations from a re-analysis of the deposited data

Results flagged for a closer look

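For 5 of 34 members tested the KO effect at D7 differed from that at D3 in the interaction test of DESeq2. That was 14.7% of the members, near the 13% of all genes. Each value is the D7 log2FC minus the D3 log2FC. The difference was -1.06 ± 0.26 (SE) for Itga9 (FDR 0.00123) and 1.28 ± 0.36 for Itga3 (FDR 0.00708). For Itgbl1 it was -1.40 ± 0.42 (FDR 0.0125), for Itgb1bp1 -0.38 ± 0.12 (FDR 0.0188) and for Lama2 -0.97 ± 0.34 (FDR 0.0351). Between iPSCs and ESCs, the KO effect on Lama4 differed by 1.44 ± 0.41 (iPSC minus ESC, FDR 0.0332). Lama4 was the 1 member of 34 tested that passed there (all genes: 1.47%). Whether the WT ESC libraries were clones is not stated. Without D3 WT replicate 1 the FDR of Itga3 was 0.0505. Itgb1bp1 had FDR 0.0743 in edgeR and lost FDR without D3 WT replicate 2, D3 KO replicate 3, D7 WT replicate 2 or D7 KO replicate 1 (0.0512 to 0.0881). Lama2 had FDR 0.167 in edgeR and lost FDR without any of 7 of the 12 libraries compared (0.0555 to 0.154). Lama4 had FDR 0.233 in edgeR and 0.521 with the compared groups alone, and lost FDR without any of 6 of the 12 libraries compared (0.0564 to 0.131). No cause of these differences was tested.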

How the results depend on the processing

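Of 117 named values (a gene in a comparison), none changed sign under any alternative. TMM factors, the low-count filter, the replicate block and leaving out both MEF KO replicate 3 and iPSC KO replicate 1 lost 0 of 117 calls. edgeR lost 4 and only the compared groups 8, and leaving out single libraries lost 48 of 738. Counts of members past FDR that moved by over 1.5 times were as follows, without shares of all genes beside them. With only the compared groups there were 6 for D5 KO, 0 for iPSC KO, 4 for ESC KO, 22 for WT D5 against D3, 20 for WT D7 against D5, 13 for the D7 minus D3 effect and 0 for the iPSC minus ESC effect. In edgeR the last pair were 3 and 0. With both libraries left out there were 3 for D5 KO, 8 for iPSC KO, 5 for ESC KO, 4 for WT ESC against iPSC, 11 for D7 minus D3 and 2 for iPSC minus ESC. The DEG rule left 2 for iPSC KO, 0 for ESC KO, and 5 each for WT D5 against D3 and D7 against D5. With the replicate block, D5 KO had 1 member past FDR, D7 KO 15 and the D7 minus D3 effect 6, and the block moved no other count by over 1.5 times. Leaving out 1 library gave 0 to 1 for D5 KO, 2 to 7 for iPSC KO, 0 to 2 for ESC KO, 7 to 10 for WT D7 against D5, 0 to 6 for WT ESC against iPSC, 3 to 6 for D7 minus D3 and 0 to 2 for iPSC minus ESC. TMM factors moved the median log2FC of all genes in WT ESC against MEF from 0.05 to 0.16. The cause of these shifts was not tested. Depth limits Itgam, Itgb1bp2 and Lamc3 at D7, which rest on few reads.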
